A study of Arabidopsis thaliana with 12 samples.

Results

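PRK, SBPASE and AT5G58330 are nuclear genes for 3 plastid enzymes whose activity is switched by thioredoxin. They were found by symbol or locus in the platform annotation, each as the only gene of 1 probe, so the 3 genes are 3 of 692 probes that name a single gene and of 3439 probes in all. No probe shared with another gene lists any of them. In the RefSeq gene table of assembly TAIR10.1, PRK is AT1G32060 on chromosome 1, SBPASE is AT3G55800 on chromosome 3 and AT5G58330 lies on chromosome 5 with the synonym NADP-MDH.

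The Calvin cycle fixes carbon dioxide in the chloroplast stroma and spends ATP and NADPH from the light reactions. Phosphoribulokinase, the product of PRK, uses ATP to regenerate ribulose bisphosphate, the acceptor of carbon dioxide, and sedoheptulose bisphosphatase, the product of SBPASE, removes a phosphate in the regeneration of that acceptor. NADP-dependent malate dehydrogenase, the product of AT5G58330, reduces oxaloacetate to malate at the expense of NADPH, and the malate carries reducing equivalents out of the chloroplast, a route known as the malate valve. In the light, electrons from photosystem I pass through ferredoxin to thioredoxin, which reduces disulfides of these enzymes and so activates them. The arrays measured transcripts and not this activation.

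Total RNA of wild-type Arabidopsis thaliana, ecotype Columbia 0, was measured in 12 array samples, 6 from plants grown at 80 µE and labelled 0 h (normal light), and 6 from plants exposed to 1000 µE for 1 h (high light). The question posed is how transcript levels compare before and after the hour at 1000 µE. No sample is labelled as kept at 80 µE for that hour, so light and elapsed time cannot be told apart. The labels give no tissue, plant age or batch, and none of 11 marker genes of roots and flowers had a probe of its own, so the tissue could not be checked. Whether the samples of 1 group are separate plants or repeats of 1 RNA is not stated, and the p-values below may therefore rest on technical spread alone. Fewer cells of a type and less RNA per cell cannot be told apart.

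Intensities were deposited on a linear scale of arbitrary units from 0 to 100. The median of a normal light column was 0.115 to 0.130, that of a high light column 0.338 to 0.357, and the 2 groups had 396 to 470 and 167 to 209 probes per sample at 0. Each gene is therefore given first as deposited and then by its rank among the probes of the same sample, which no scaling of whole samples alters. A fold change after quantile normalisation follows. Quantile normalisation gives every sample the same set of values, except that values deposited as 0 were afterwards set to a common floor. The number of arrays limits the precision.

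The 3 genes took different courses. PRK went down and AT5G58330 went up in each of the 6 scalings tried. SBPASE was higher in high light as deposited but its ranks among the other probes overlapped between the groups. After quantile normalisation 1 of the 3 genes rose and 1 fell at an adjusted p under 0.05 in limma, where 15.8% of all probes rose and 22.0% fell, and as deposited 2 rose and 1 fell, where 49.4% of all probes rose and 5.64% fell. The groups of PRK and AT5G58330 did not overlap either way, as held after normalisation for 14.5% of all probes upwards and 16.3% downwards, and as deposited for 44.0% upwards and 3.98% downwards.

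PRK had deposited intensities of 2.96, 3.26, 3.24, 2.83, 3.499 and 2.95 in normal light samples 1 to 6. In high light samples 1 to 6 it had 1.12, 1.13, 1.17, 1.13, 1.16 and 1.11. All 6 high light values lay below all 6 normal light values, and they differed little from one another. The means were 3.12 ± 0.250 and 1.14 ± 0.0237 (SD, n = 6), and the mean log2 values differed by 2.74-fold.

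By rank, PRK stood between place 121 and place 154 from the brightest probe in normal light and between place 481 and place 555 in high light. In the units of its own column's median, it stood at 22.7 to 27.9 times the median in normal light and at 3.11 to 3.46 times in high light. Both measures place PRK among the bright probes before high light and still in the upper part of the distribution after it. The plot of ranks by sample shows that none of the 12 samples departs from this order.

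After quantile normalisation PRK fell by 1.89 on the log2 scale (SE 0.0951, 95% confidence interval -2.10 to -1.68), a 3.71-fold difference, with an adjusted p of 1.41e-07 in limma. Averaging samples 1 and 2, 3 and 4, and 5 and 6 within each group, in case neighbouring numbers are repeats of 1 RNA, left 3 against 3 and an adjusted p of 0.00406 in limma. Among all probes 8.08% had a lower change than PRK, and among the other named probes 64 did. Subtracting a constant from each column to equalise the medians was a choice made after the data were seen. Under it the change of PRK was -1.78, the 8.08% and 64 became 42.5% and 324, and the median probe itself moved by -0.88. More was subtracted from the high light columns, whose medians were higher, and results at or below 0 were set to the floor of 9.02e-06. The 42.5% therefore includes dim probes put at that floor in high light, whose number was not counted. As deposited, where the median probe was 1.47 higher in high light, the change of PRK was -1.45 and 4.89% of probes had a lower one. PRK thus moved against the shift of the median probe on that scale.

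**Figure D1:**
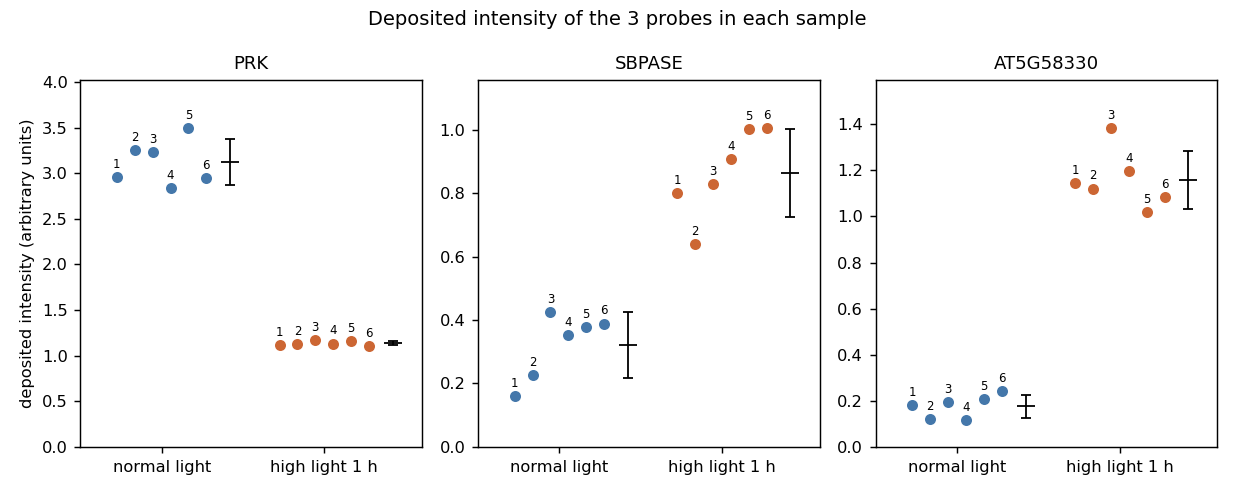
Deposited intensity (linear axis, arbitrary units) of PRK, SBPASE and AT5G58330 in 6 normal light (blue) and 6 high light (orange) samples, labelled with their sample numbers; black marks are mean ± SD (n = 6). PRK goes from 2.83 to 3.499 in normal light down to 1.11 to 1.17 in high light. SBPASE and AT5G58330 are higher in all 6 high light samples than in any normal light sample, as are 44.0% of all probes. Each panel has its own axis.

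AT5G58330, the malate dehydrogenase gene, had deposited intensities of 0.180, 0.120, 0.193, 0.116, 0.209 and 0.241 in normal light samples 1 to 6. In high light samples 1 to 6 the intensities were 1.147, 1.12, 1.39, 1.197, 1.02 and 1.08. Every high light value exceeded every normal light value. The mean went from 0.177 ± 0.0497 to 1.16 ± 0.127 (SD, n = 6).

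In normal light the AT5G58330 probe was of middling brightness, at 0.930 to 1.86 times the median of its column and at places 1152 to 1792 of the 3439 probes. In high light it was at 2.92 to 4.10 times the median and at places 406 to 617. The start near the median means that the size of the fold change rests on dim values in normal light, with a coefficient of variation of 28.1% there against 10.9% in high light.

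After quantile normalisation AT5G58330 rose by 1.55 on the log2 scale (SE 0.169, 95% confidence interval 1.18 to 1.92), a 2.93-fold difference with an adjusted p of 3.94e-05 in limma and of 0.0144 with neighbouring samples averaged. As deposited the change was 2.76 (SE 0.198), or 6.77-fold, and relative to the median probe of that scale it was 1.28. With all columns scaled to a common median it was 1.27 (SE 0.188, adjusted p in limma 2.31e-04). The direction was the same throughout, and the size depended on the scaling. After quantile normalisation 72.7% of all probes had a lower change, and 201 other named probes had a higher one.

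**Figure D2:**
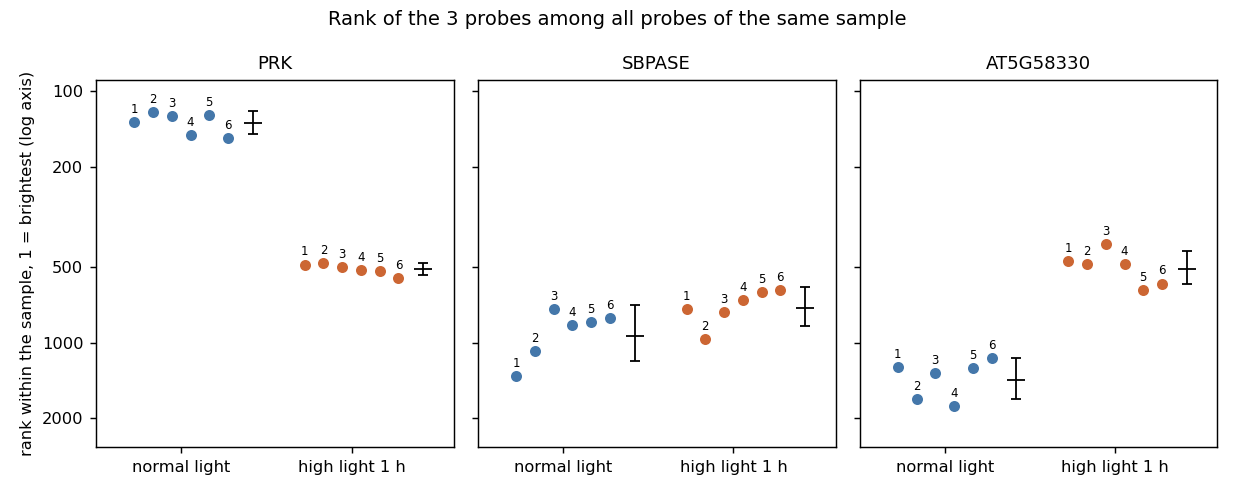
Rank of each probe among the 3439 probes of the same sample (log axis, 1 is the brightest, at the top) in 6 normal light and 6 high light samples, labelled with sample numbers; black marks are mean ± SD (n = 6). PRK goes from places 121 to 154 down to 481 to 555, AT5G58330 from 1152 to 1792 up to 406 to 617, and the places of SBPASE overlap between the groups, at 737 to 1364 and 620 to 967.

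SBPASE had deposited intensities of 0.161, 0.226, 0.424, 0.353, 0.377 and 0.389 in normal light samples 1 to 6. In high light samples 1 to 6 it had 0.801, 0.639, 0.828, 0.906, 1.001 and 1.01. The groups did not overlap on this scale, as held upwards for 44.0% of all probes. The means were 0.322 ± 0.104 and 0.864 ± 0.139 (SD, n = 6). Samples 1 and 2 were the lowest of their group in both light conditions. Their mean was 0.194 against 0.386 for samples 3 to 6 in normal light, and 0.720 against 0.936 in high light.

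Within the samples the places of SBPASE overlapped between the groups. It stood at places 737 to 1364 before and 620 to 967 after the hour of high light, and at 1.40 to 3.30 and 1.81 to 2.88 times the column median, with overlap on this measure too. After quantile normalisation the change was 0.36 on the log2 scale (SE 0.183, 95% confidence interval -0.040 to 0.77), which did not pass the test (adjusted p in limma 0.145). That interval allows anything from a slight fall to a 1.70-fold rise.

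The call for SBPASE turned on the scaling. As deposited its change was 1.49 (SE 0.250, adjusted p in limma 5.17e-04, and 0.0359 with neighbouring samples averaged), where the median probe moved by 1.47. With a common mean it was 1.26 (adjusted p in limma 0.00123, and 0.0520 with neighbouring samples averaged, where the call was lost), and with a common median -0.0025 (95% confidence interval -0.50 to 0.49, adjusted p in limma 0.996). Relative to the median probe the change was 0.012 as deposited. On that scale 50.3% of all probes had a lower change, against 76.3% with a constant subtracted. The second share includes dim probes put at the floor in high light by that subtraction. Without samples 1 and 2 of both groups, a choice made after the data were seen, the normalised change was 0.25 (SE 0.116, adjusted p in limma 0.147).

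**Figure D3:**
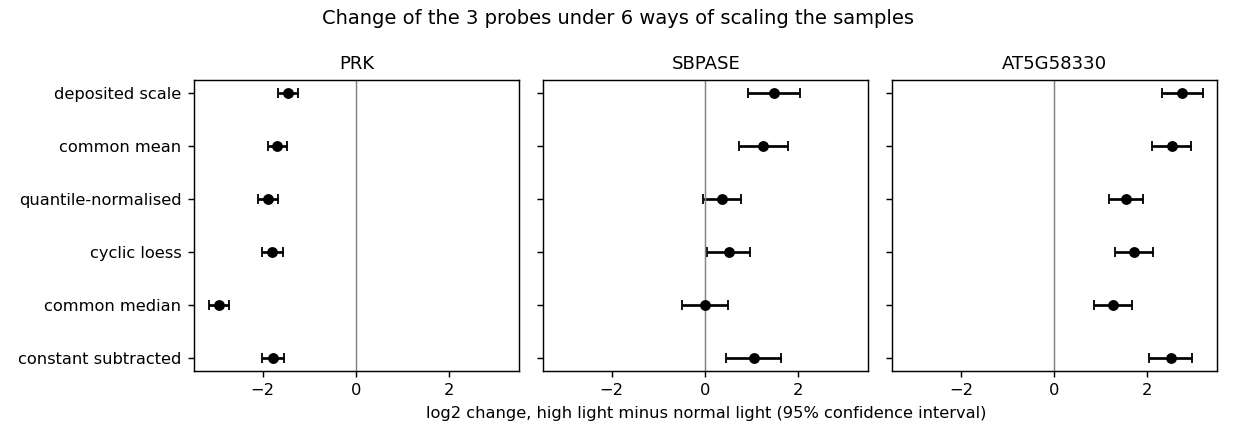
Change in log2 intensity, high light minus normal light, of each gene under 6 ways of scaling the samples; points are limma estimates over 6 and 6 samples and bars are 95% confidence intervals. PRK stays below 0 (-2.94 to -1.45) and AT5G58330 above 0 (1.27 to 2.76) in all 6, while SBPASE goes from -0.0025 with a common median to 1.49 as deposited.

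Ratios between 2 genes within a sample do not depend on a scale factor of that sample, so they were compared on deposited values. A ratio of 2 probes does not say which transcript is more abundant, because probes differ in their signal per transcript, and only its change between the groups is read here. A changed ratio shows that 2 signals changed unequally on the deposited scale. It speaks for an unequal change of transcripts only where columns differ by a scale factor alone. Column medians were 0.115 to 0.130 before the hour at 1000 µE and 0.338 to 0.357 after it. Column means were closer, at 0.850 to 0.905 before and 1.01 to 1.06 after. Whether the columns also differ by a constant or non-linearly was not tested. Each ratio was tested in limma among the ratios of all 3438 other probes to the same reference gene, and beside this by an exact permutation test over the 12 samples, whose smallest possible p is 0.00216. The plot of log2 ratios shows the 3 ratios in every sample.

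The ratio of PRK to AT5G58330 changed most of the 3. It was 16.4, 27.1, 16.8, 24.4, 16.8 and 12.2 in normal light samples 1 to 6. In high light samples 1 to 6 it was 0.977, 1.01, 0.844, 0.947, 1.14 and 1.02. The groups did not overlap, which held downwards for 39.9% of the other probes relative to AT5G58330. The ratio varied less in high light, with an SD of 0.143 on the log2 scale against 0.422 in normal light. Probes within a factor of 1.5 of the brightness of either gene varied less there too. Their median coefficient of variation went from 21.5% to 13.2% near PRK and from 38.6% to 13.1% near AT5G58330. The log2 change was -4.21 (SE 0.211, 95% confidence interval -4.68 to -3.75), 18.5-fold, with an adjusted p of 8.55e-08 in limma (0.00167 with neighbouring samples averaged) and a 2-sided exact permutation p of 0.00216. The size depended on the scaling, with a log2 change of -3.44 (10.8-fold) after quantile normalisation and -3.51 (11.4-fold) with cyclic loess, both outside that interval. Of all other probes, 49.2% were called lower relative to AT5G58330, and 4.89% had a lower change than PRK. The second share was 10.2% with cyclic loess and 42.5% with a constant subtracted from each column, where dim probes were put at the floor in high light. It restates the place of PRK among all probes, since 1 reference gene shifts all changes alike.

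The ratio of PRK to SBPASE went from 7.58 to 18.3 in normal light to 1.103 to 1.76 in high light, again with no overlap, as 17.6% of the other probes showed downwards relative to SBPASE. The 2 highest ratios in normal light, 18.3 and 14.4, belonged to samples 1 and 2, in which SBPASE was lowest. The log2 change was -2.94 (SE 0.264, 95% confidence interval -3.52 to -2.36), 7.68-fold, with an adjusted p of 2.72e-05 in limma, 0.0353 with neighbouring samples averaged, and a 2-sided exact permutation p of 0.00216. It was smaller, and outside that interval, after quantile normalisation (-2.25, 4.77-fold) and with cyclic loess (-2.30, 4.93-fold), where the call was lost with neighbouring samples averaged (adjusted p in limma 0.0515). Of all other probes 22.9% were called lower relative to SBPASE. Without samples 1 and 2 of both groups the change was -2.72 (adjusted p in limma 6.32e-05).

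The ratio of SBPASE to AT5G58330 was 0.896, 1.88, 2.201, 3.03, 1.81 and 1.61 in normal light samples 1 to 6. In high light samples 1 to 6 it was 0.698, 0.570, 0.598, 0.757, 0.983 and 0.930. The groups overlapped through normal light sample 1, which lay below high light samples 5 and 6. The log2 change was -1.27 (SE 0.286, 95% confidence interval -1.90 to -0.64), 2.42-fold, with an adjusted p of 0.00251 in limma, 0.0419 with neighbouring samples averaged, and a 2-sided exact permutation p of 0.00649. SBPASE was 1 of the 49.2% of probes called lower relative to AT5G58330, and 50.3% of probes had a lower change than SBPASE. This last share was 54.9% after quantile normalisation. It was 76.4% with a constant subtracted from each column, where dim probes were put at the floor in high light.

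**Figure D4:**
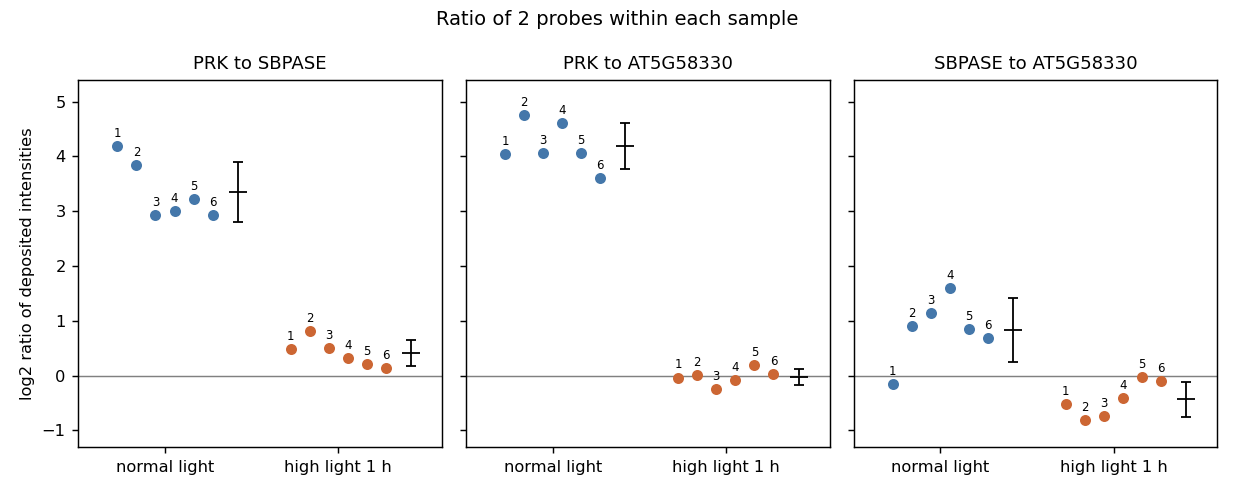
Log2 ratio of deposited intensities of 2 probes within each of 6 normal light and 6 high light samples, labelled with sample numbers; black marks are mean ± SD (n = 6) and the grey line is a ratio of 1. The mean log2 ratio goes from 3.35 to 0.41 for PRK to SBPASE, from 4.19 to -0.020 for PRK to AT5G58330, and from 0.84 to -0.43 for SBPASE to AT5G58330, where normal light sample 1 lies within the high light range.

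Of the other genes of these pathways few had a probe of their own. The lists held 23 further Calvin cycle enzymes and regulators, 12 genes of the malate valve and other malate dehydrogenases, 16 of photorespiration and 12 of triose phosphate export, starch and sucrose, and none of these had one. Counting also 9 genes of Rubisco assembly, 21 of the ferredoxin and thioredoxin system, 15 other plastid proteins regulated or reduced by thioredoxin and 6 of the oxidative pentose phosphate pathway, 5 of 114 genes were measured, while 8 others appeared only on probes of several genes. In limma 2 of the 5 were called higher and 1 lower, beside the 15.8% and 22.0% of all probes, and the remaining 2 were not called. The median change of the 5 was 0.11 on the log2 scale after quantile normalisation, beside 0.16 for all probes.

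AT3G52960, listed with the plastid proteins regulated or reduced by thioredoxin, had deposited intensities of 0.136, 0.185, 0.0977, 0.169, 0.172 and 0.196 in normal light samples 1 to 6. In high light samples 1 to 6 they were 1.07, 0.904, 0.982, 1.02, 0.860 and 0.996. The groups did not overlap, as held upwards for 44.0% of all probes as deposited. Its log2 change was 1.36 after quantile normalisation (SE 0.160, adjusted p in limma 6.45e-05) and 2.64 as deposited, close to the 1.55 and 2.76 of AT5G58330 on the same scales. A difference between these 2 genes was not tested.

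In the ferredoxin and thioredoxin system, NTRC is a plastid thioredoxin reductase that draws on NADPH. As deposited it ranged over 0.0902 to 0.228 in the first group and over 0.257 to 0.695 in the second. It thus showed no overlap, as held upwards for 44.0% of all probes. Its normalised log2 change was 0.11 (SE 0.304) and did not pass the test (adjusted p in limma 0.789), while as deposited it was 1.51 (adjusted p in limma 0.00218, and 0.0602 with neighbouring samples averaged, where the call was lost), beside 1.47 for the median probe. In high light its 2 lowest values, 0.257 and 0.266, were those of samples 3 and 4. AT2G04700, listed with the same system, went from 0.742 ± 0.164 to 0.865 ± 0.188 (SD, n = 6) as deposited, with overlapping groups. It fell by 0.65 after quantile normalisation (SE 0.170, adjusted p in limma 0.0106), a call that was lost with neighbouring samples averaged (adjusted p in limma 0.132) and whose direction turned as deposited (0.22).

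AT3G47650, listed with Rubisco assembly, went from 1.33 to 1.84 in normal light to 2.55 to 2.96 in high light as deposited. These groups did not overlap, as held upwards for 44.0% of all probes. Its normalised change was 0.39 (SE 0.108, adjusted p in limma 0.0152), with overlapping groups. The call was lost with neighbouring samples averaged (adjusted p in limma 0.178). With a common median the gene was called lower instead (-0.67, adjusted p in limma 9.80e-04, and 0.0641 with neighbouring samples averaged). AT1G12230, listed with the pentose phosphate pathway, was at 0 in 3 samples of normal light and 2 of high light and no higher than 0.0496 in the others, so no change is given for it.

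**Figure D5:**
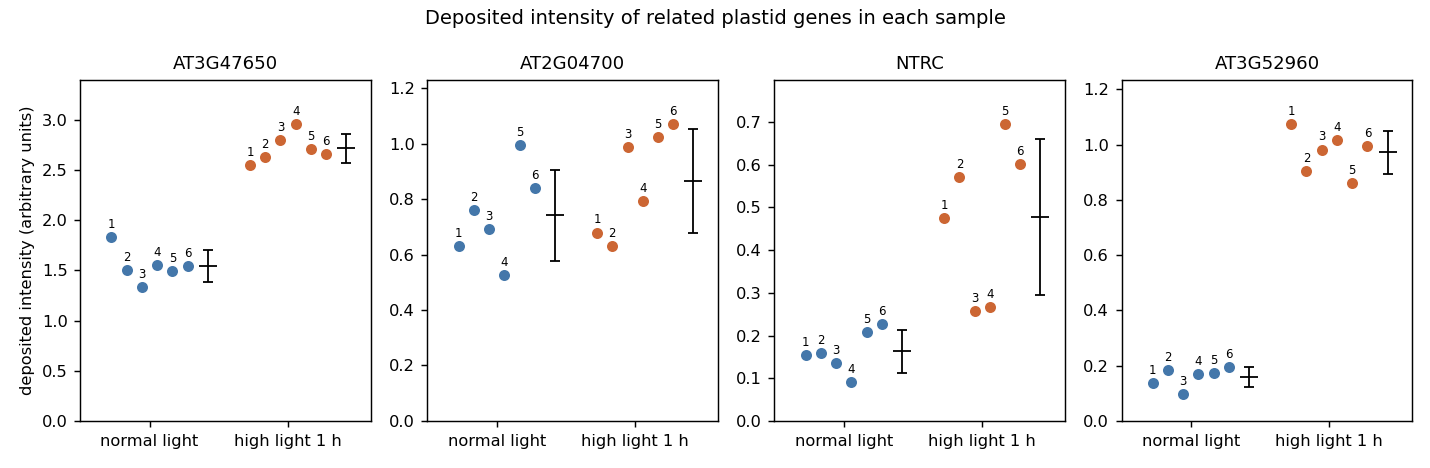
Deposited intensity (linear axis, arbitrary units) of 4 measured genes of the related lists in 6 normal light (blue) and 6 high light (orange) samples, labelled with sample numbers; black marks are mean ± SD (n = 6). AT3G47650, NTRC and AT3G52960 are higher in all 6 high light samples than in any normal light sample, as are 44.0% of all probes. The groups of AT2G04700 overlap. Each panel has its own axis.

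The named genes whose normalised log2 values followed each member most closely over the 12 samples were taken from 421 other named probes above 0 in every sample, as a description in which the 12 samples share the contrast of the groups. For PRK they were AT5G59060 (Pearson's r 0.99), AT3G12930 (0.98) and AT3G56290 (0.98), and 57 genes had an r over 0.9. For AT5G58330 they were AT3G11150 (0.95), AT2G36480 (0.94) and AT4G18180 (0.94), and 19 genes had an r over 0.9. For SBPASE they were AT2G29870 (0.86), AT3G57630 (0.85) and AGL26 (0.82), and 0 genes had an r over 0.9.

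For SBPASE these likenesses were about as high after the group means were removed, at 0.81, 0.83 and 0.74. Its genes were picked by r over the same 12 samples, and SBPASE changed little between the groups (0.36 after normalisation). The pick itself therefore favoured high values here. For PRK they were 0.78, -0.15 and 0.33, and for AT5G58330 they were 0.60, 0.21 and 0.28. The picks for PRK and AT5G58330 also drew on their larger changes between the groups, so these values are not compared between the members. AT5G59060 went from 0.620 ± 0.142 to 0.225 ± 0.0264 in deposited intensity and AT3G11150 from 0.0775 ± 0.0540 to 1.08 ± 0.189 (SD, n = 6). The other genes named for PRK changed little as deposited. Their log2 changes were -0.32 for AT3G12930 and -0.13 for AT3G56290, against -1.45 for PRK. After quantile normalisation they were -1.44 and -0.99, against -1.89 for PRK.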

How the data were processed

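Per the labels, 12 samples of total RNA fell into 2 groups of 6, taken with their numbers from the titles. The deposited table holds linear intensities. The authors' steps from scan to intensity are not given in the sources used here. Because column medians differed by a factor of 3.10, above the 1.1 allowed, the intensities were quantile-normalised between arrays, values of 0 were set to the lowest positive value, 9.02e-06, and log2 values were tested over all 3439 probes with Benjamini-Hochberg adjustment and a threshold of 0.05, by the 2-sided moderated test of limma (version 3.58.1, under R version 4.3.3). Within-sample log2 ratios were tested in the same way on deposited values. Scripts were tested on simulated data.

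Probes were named from the platform annotation, and 690 of 692 single-gene probes matched the RefSeq table of TAIR10.1 by gene identifier; 870 probes with several genes name none, and 1877 are not listed. No build is named for the array, so positions are left out. The members and the pathway lists were chosen with earlier results of these data known. All measured list genes are named, and the 3 genes most like each member were taken by Pearson's r. The alternatives were the deposited scale, a common median or mean, cyclic loess, an offset of 0.00558 before log2, subtraction of the 10th percentile of each column, a filter on the dimmest 25% of probes, other limma settings, the sample numbers as a block, neighbouring samples averaged or as a random block, each sample left out, and an exact permutation test. Of the choices, subtracting a constant from each column and leaving out samples 1 and 2 were made after the data were seen. Values at or below 0 after that subtraction were set to the same lowest positive value. Deviations of same-numbered samples of the 2 groups correlated at -0.0063 to 0.065 across probes, so the numbers were not taken to pair the groups. In the normalised log2 values themselves, neighbouring numbers within a group correlated at 0.713 on average and other pairs at 0.613. The 2 kinds of pair overlapped, with a lowest r of 0.571 for neighbours and a highest of 0.771 for other pairs. Averaging neighbours assumes repeats, which the labels do not state.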

Additional observations from a re-analysis of the deposited data

How the results depend on the processing

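Over 15 other settings each, PRK stayed called at -2.94 to -1.45 and AT5G58330 at 1.27 to 2.76, and over 10 other settings each the 3 ratios stayed called with the same sign, at -2.94 to -2.25 for PRK to SBPASE, -4.29 to -3.44 for PRK to AT5G58330 and -1.45 to -1.19 for SBPASE to AT5G58330. The exact permutation test was among the settings of each gene and ratio and was counted as called by its p without adjustment over the probes. Quantile normalisation gave the smallest change of each ratio. Leaving out 1 sample at a time gave -1.93 to -1.84 for PRK, 1.43 to 1.63 for AT5G58330, 0.23 to 0.45 for SBPASE (never called), -3.03 to -2.77 for PRK to SBPASE, -4.33 to -4.10 for PRK to AT5G58330 and -1.47 to -1.12 for SBPASE to AT5G58330. SBPASE, at 0.36 and not called, was called as deposited (1.49), with a common mean (1.26) and with a constant subtracted from each column (1.05), of which the last 2 calls were lost with neighbouring samples averaged (adjusted p in limma 0.0520 and 0.102), and stood at -0.0025 with a common median, close to 0; the cause was not tested. Of the 5 measured pathway genes, 2 were called higher and 1 lower. The count higher was 3 as deposited and with a common mean, and 1 with a common median, with the replicate block and with neighbouring samples averaged. The count lower was 0 as deposited, with a common mean and with neighbouring samples averaged, and 2 with a common median. Over all 3439 probes 543 were called higher and 757 lower, against 1698 and 194 as deposited and 1438 and 274 with a common mean. These counts were 391 and 911 with a common median, 490 and 705 with the replicate block, and 330 and 429 with neighbouring samples averaged.

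With the sample numbers as a replicate block, the changes were -1.89 for PRK (adjusted p in limma 3.17e-04), 1.55 for AT5G58330 (0.00243) and 0.36 for SBPASE (0.122), and the ratios changed by -4.21, -2.94 and -1.27, all called. The numbers share no stated origin. Each sample was compared with the 6 of the other group, and of the 12 samples 4 were closest in their deviations to the sample of the same number. Whether that count exceeds chance was not tested.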

Other observations

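PRK varied least of the 3 genes between samples of 1 group. Its coefficient of variation went from 8.01% to 2.09% with high light, and of the 2233 probes above 0 in all 12 samples 2 had a smaller one in high light and 50 in normal light. Of 461 other probes with a mean in high light within a factor of 1.5 of that of PRK, 0 had a smaller one. In normal light 6 of 97 such probes did. The median coefficient of variation of probes of like brightness was also lower in high light, at 13.2% against 21.5%. SBPASE had 32.3% and 16.1%, and in high light 981 of the 2233 probes had a smaller one. These are values picked out after the data were seen, with no test.

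In none of the 20 groups of 6 values examined (the members, their ratios and the measured pathway genes, without values at 0) did 1 sample stand far from the other 5 by its gap relative to the whole range.

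For NTRC, neighbouring samples lay close together in high light, at 0.475 and 0.571 for samples 1 and 2, 0.257 and 0.266 for samples 3 and 4, and 0.695 and 0.602 for samples 5 and 6. For SBPASE the mean log2 difference of deposited values between neighbouring numbers was 0.27 and 0.15 in the 2 groups, against 0.72 and 0.33 for other pairs of samples. For PRK it was 0.19 and 0.041, against 0.13 and 0.035, so that neighbours were not more alike for that gene. For AT5G58330 it was 0.51 and 0.11, against 0.52 and 0.197.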
